A study of Mus musculus with 14 samples.

Results

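The 7 genes described here are the aryl hydrocarbon receptor Ahr, its partner Arnt, its repressor Ahrr, the feedback gene Tiparp, and the cytochrome P450 genes Cyp1a1, Cyp1a2 and Cyp1b1. They are 7 of 34452 mouse genes counted in RPE of rd1 mice. Cyp1a1 had the largest rise in eyes given Nrf2, and that rise chose the set. The Cyp1a1 difference is therefore given as a description without a test, and the comparison of interest is whether the other genes of the receptor moved with it. The rd1 mouse (FVB/N) lacks Pde6b function and loses its rods early. Each of 7 mice contributed both eyes at postnatal day 20. The paper reports fewer paired replicates for its comparison at this age and does not say which mice it used. All 14 eyes carried an adeno-associated virus (AAV) with GFP under the human Best1 promoter, which restricts expression to the RPE. One eye of every mouse (Nrf2) also carried AAV-Best1-Nrf2, encoding human Nrf2, and the fellow eye (control) did not. The Nrf2 eye thus differed by an extra vector, of another capsid, as well as by the transgene, and these cannot be told apart. A library is called by its group and the number of its mouse.

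The aryl hydrocarbon receptor is a ligand-activated transcription factor of the bHLH-PAS family that resides in the cytoplasm with a chaperone complex. On binding a ligand, such as a planar aromatic pollutant or a tryptophan metabolite, it enters the nucleus, pairs with ARNT and binds the xenobiotic response element. Cyp1a1, Cyp1a2, Cyp1b1, Ahrr and Tiparp are its standard target genes, and the products of Ahrr and Tiparp restrain the receptor. Some of its other targets, among them Nqo1 and glutathione transferases, are also targets of Nrf2, which acts through the antioxidant response element.

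Total counts per library ranged from 16548349 to 50543008. Levels in CPM, counts scaled to a common library total, are relative to the counts on mouse genes. The label RPE was checked with 8 markers (Rpe65, Best1, Rlbp1, Ttr, Lrat, Rgr, Stra6 and Slc16a8). All 8 were detected, and their sum ranged from 12040 to 25042 CPM in Nrf2 eyes and from 5288 to 27043 CPM in control eyes. Ttr and Rgr had the highest means in that sum, at 6233 and 5569 CPM, and Best1 the lowest, at 1.81 CPM. The markers moved apart within that sum: Rpe65 fell in 7 of 7 mice (log2 fold change -2.17, adjusted p = 0.0198), from a mean of 1424 to 345 CPM, and Ttr averaged 3402 CPM in control and 9064 CPM in Nrf2 eyes (1.58, adjusted p = 0.10). The eyecups also held RNA of other cells. The sum of 6 surface epithelium markers (Krt5, Krt12, Krt14, Krt15, Trp63 and Perp) ranged from 2345 to 22467 CPM, with a median of 7870, in Nrf2 eyes and from 2275 to 51384 CPM, with a median of 22175, in control eyes. The vector transcript, human NFE2L2, was at 8787, 5903, 6781, 1165, 4598, 5515 and 8624 CPM in Nrf2 eyes 1 to 7 and at 1.12, 51.8, 1164, 75.5, 175, 1.18 and 7.79 CPM in control eyes 1 to 7. Control 3 and Nrf2 4 had the same vector level, and of all 91 pairs of libraries they were the most alike: the median chi-square of their counts per gene was 3.93 times that of sampling noise, against 11.8 times in the next pair. The fold changes of the tested members and of the pathway genes that passed are therefore also given without mice 3 and 4. The sequencing run of each library is not in the labels, so runs could not be compared.

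The stretch just upstream of the start site is shown for 3 of the target genes. Response elements farther upstream would lie outside it and were not searched. RefSeq promoter windows, taken as the 250 bases before the start site, were matched for 6 of the 7 genes in build GRCm38.p6, Ahr being the exception. The core of the xenobiotic response element, GCGTG, was searched on both strands and is in capitals. The windows are written 5′ to 3′ on the strand of the gene, and a match on the opposite strand appears as CACGC. The Cyp1a1 window (chr9:57697363-57697612, + strand) lies in an intron of a longer annotated Cyp1a1 transcript and overlaps no exon, and those of Cyp1b1 (chr17:79715062-79715311, - strand) and Ahrr (chr13:74292332-74292581, - strand) overlap no annotated gene.
Cyp1a1: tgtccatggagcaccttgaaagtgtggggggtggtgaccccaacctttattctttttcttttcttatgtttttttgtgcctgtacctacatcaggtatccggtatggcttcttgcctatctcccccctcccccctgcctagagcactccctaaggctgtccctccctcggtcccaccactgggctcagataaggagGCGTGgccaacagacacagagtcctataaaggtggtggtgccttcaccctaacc
Cyp1b1: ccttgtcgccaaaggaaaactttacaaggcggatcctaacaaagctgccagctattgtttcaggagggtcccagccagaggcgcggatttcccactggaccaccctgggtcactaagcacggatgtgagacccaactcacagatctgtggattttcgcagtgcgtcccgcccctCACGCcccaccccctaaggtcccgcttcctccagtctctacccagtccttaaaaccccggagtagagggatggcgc
Ahrr: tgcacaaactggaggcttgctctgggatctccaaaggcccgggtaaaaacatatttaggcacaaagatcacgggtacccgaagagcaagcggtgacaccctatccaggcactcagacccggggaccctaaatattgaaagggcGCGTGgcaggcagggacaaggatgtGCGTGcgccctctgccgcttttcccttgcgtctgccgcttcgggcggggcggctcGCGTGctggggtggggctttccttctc

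The Cyp1a1 window held 1 match, from base -54 to base -50 before the start site. Cyp1b1 held 1 on the opposite strand, from -76 to -72, and Ahrr held 3, beginning at -107, -82 and -27. Arnt and Tiparp held 1 each and Cyp1a2 held 0. In all, 5 of the 6 windows had a match, against 28.2% of 32851 windows of the same length and 14 of 43 matched genes of the pathway lists below. The 32851 windows were not matched to the 6 in base composition, so the shares are not a test of enrichment. An annotated exon covered all 250 bases of the Tiparp window. The core of the antioxidant response element, TGACNNNGC, was present in 10.2% of windows. Among the 6 genes only Arnt had it, with 2 matches, 1 of them on the opposite strand. The 2 motifs do not overlap in the Arnt window. A match is a run of letters and does not show binding.

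Cyp1a1 (ENSMUSG00000032315, chromosome 9, 57687928 to 57703824, + strand) encodes the P450 enzyme whose induction is the usual readout of the active receptor. In Nrf2 eyes 1 to 7 it was at 19.9, 19.1, 12.8, 1.68, 10.4, 9.19 and 20.9 CPM, from 862, 315, 411, 41, 378, 209 and 1045 counts. In control eyes 1 to 7 it was at 0, 0.0668, 1.39, 0.318, 0.517, 0 and 0.0241 CPM, from 0, 2, 46, 9, 16, 0 and 1 counts. The groups did not overlap, but Nrf2 4 and control 3, the lowest Nrf2 eye and the highest control eye, lay close together. The Nrf2 mean was 13.4 ± 7.02 CPM (SD, n = 7). The control mean was 0.331 ± 0.507 CPM (SD, n = 7), and the fitted log2 fold change was 6.18 (SE 1.21). Without mice 3 and 4 the means were 15.9 ± 5.62 and 0.122 ± 0.223 CPM (SD, n = 5) and the fitted value was 7.96.

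The size of the Cyp1a1 difference varied widely between mice. The ratio of Nrf2 to control eye was 5.27 (95% exact interval 2.52 to 12.3) in mouse 4, 9.22 (6.79 to 12.8) in mouse 3 and 20.1 (12.2 to 35.6) in mouse 5. It was 287 (78.7 to 2378) in mouse 2 and 865 (155 to 34185) in mouse 7, whose control eyes had 2 and 1 counts. In mice 1 and 6 the control eye had 0 counts, and against a floor of 3 counts in that library the Nrf2 eye was at least 267-fold and at least 72.8-fold higher. These intervals and floors cover counting error only. Mouse 4, with the smallest ratio, had the least vector transcript of any Nrf2 eye, and mouse 3, with the next smallest, had the most of any control eye.

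**Figure D1:**
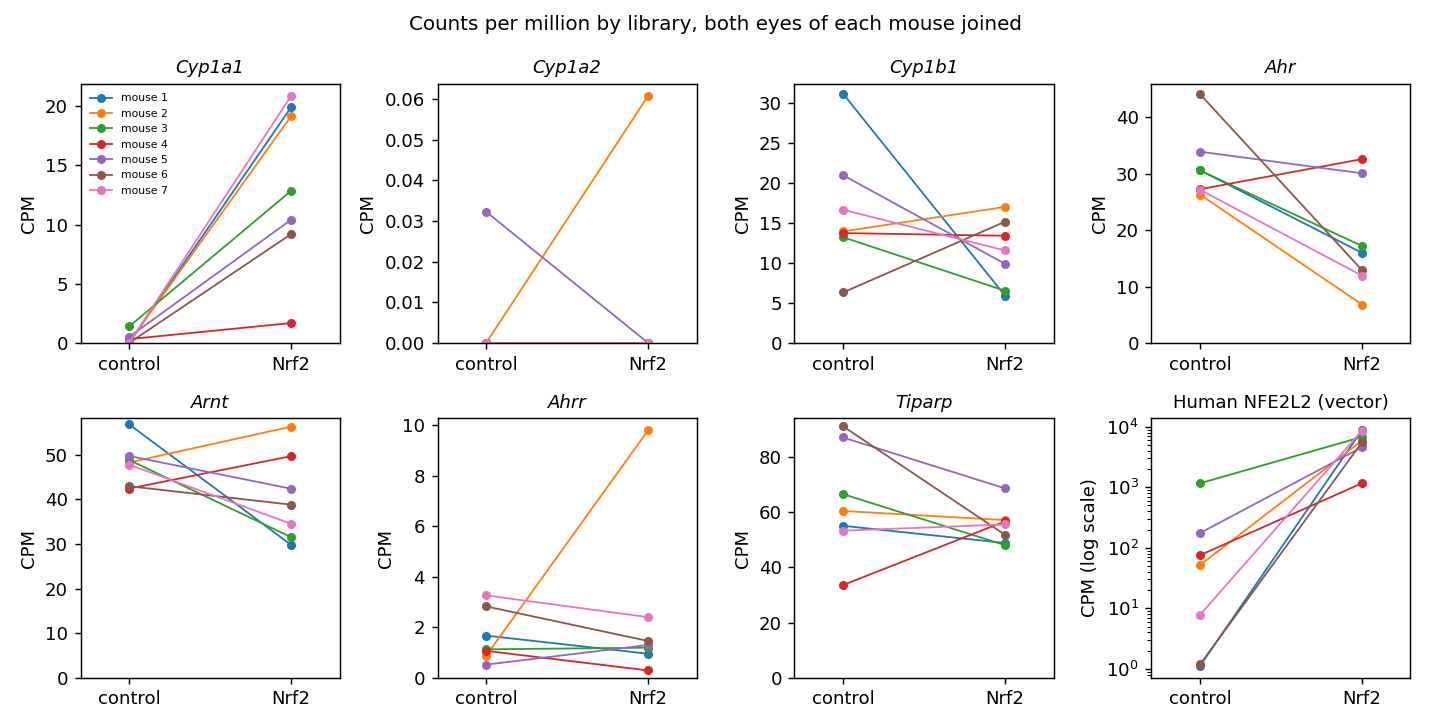
Level in CPM (y axis, linear except for the vector transcript, which has a log axis) of the 7 genes and of human NFE2L2 in control and Nrf2 eyes, with a line joining the eyes of each of the 7 mice. Cyp1a1 rises along every line, from at most 1.39 CPM in control eyes, while the lines of the other mouse genes cross or run in both directions.

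Cyp1a1 was also set against the vector transcript within each group, as a description without a test, because its values chose the set and the relation was examined after they had been seen. Of the 4 control eyes with at least 1000 counts of NFE2L2, each had Cyp1a1 counts, and these 4 held 1.2 to 4.21 Cyp1a1 counts per 1000 vector counts (median 2.12). The 7 Nrf2 eyes held 1.44 to 3.24 per 1000 (median 2.26), so the ranges of the 2 groups overlapped. The correlation of log2 CPM was r = 0.98 and rho = 0.929 across the 7 Nrf2 eyes, and r = 0.949 and rho = 0.991 across the 7 control eyes. Both transcripts share the library total. In Nrf2 eyes r was 0.794 without Nrf2 1 and Nrf2 4, the eyes farthest from the median vector level, and 0.852 without Nrf2 4 alone. In control eyes r was 0.959 without control 1 and control 6 and 0.915 without control 3. For Cyp1b1, Ahr, Ahrr, Arnt and Tiparp, r with the vector ranged from -0.636 (Arnt) to 0.627 (Ahrr) in Nrf2 eyes and from -0.672 (Ahrr) to 0.0406 (Cyp1b1) in control eyes. These values also depended on single eyes. Without Nrf2 1 and Nrf2 4 they ranged from -0.601 (Arnt) to 0.15 (Ahrr). Without control 1 and control 6 they ranged from -0.59 (Ahrr) to 0.56 (Ahr).

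**Figure D2:**
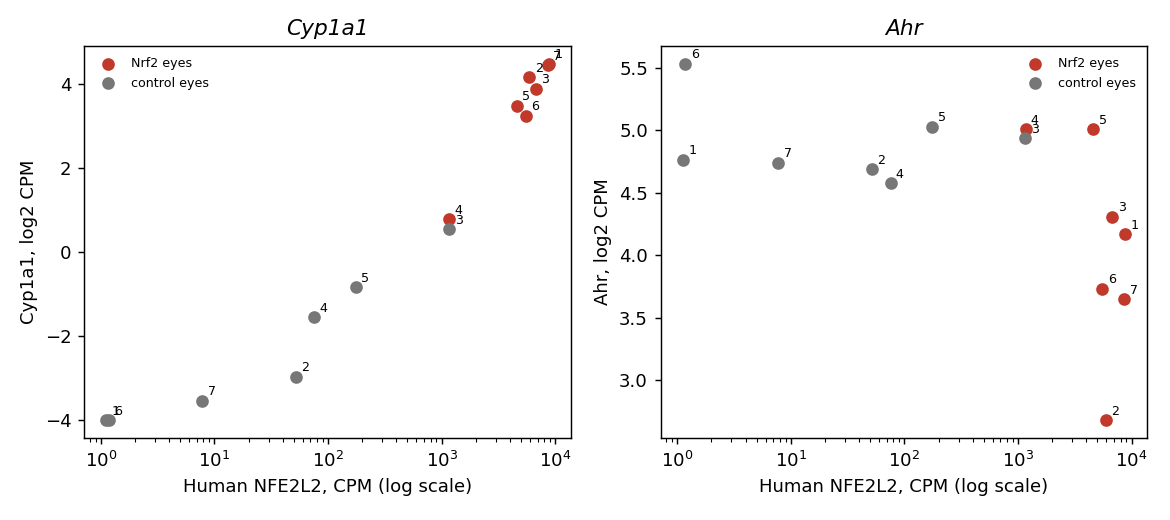
Log2 CPM of Cyp1a1 (left) and Ahr (right) against CPM of human NFE2L2 on a log axis, 1 point per library, numbered by mouse, with Nrf2 eyes in red and control eyes in grey. Cyp1a1 climbs with the vector transcript in both groups, and control 3 and Nrf2 4 sit at the same place. Across all 7 eyes of a group Ahr shows no such climb (r = -0.531 in Nrf2 eyes and -0.29 in control eyes). Without control 1 and control 6 its r in control eyes was 0.56.

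Cyp1a2 (ENSMUSG00000032310, chromosome 9, 57676937 to 57683703, - strand) is the neighbour and closest relative of Cyp1a1, and the 2 RefSeq start sites lie 13958 bases apart on opposite strands. The enzyme is known chiefly from liver. It had 1 count in Nrf2 2 and 1 count in control 5 and 0 counts in the other 12 libraries, where a floor of 3 counts corresponds to between 0.0599 and 0.132 CPM. Cyp1a2 did not pass the filter on low counts and was not tested, and at this depth no difference was detectable. Of 2756 stretches of 31 bases in Cyp1a1 transcripts, 152 (5.52%) also occur in Cyp1a2, so a small part of the Cyp1a1 reads could not be placed by sequence alone.

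Cyp1b1 (ENSMUSG00000024087, chromosome 17, 79701537 to 79715061, - strand) encodes the P450 enzyme of the family that is found mainly outside the liver and is known for its role in the eye. It was at 5.91, 17, 6.53, 13.4, 9.91, 15.2 and 11.6 CPM in Nrf2 eyes 1 to 7 and at 31.2, 14, 13.2, 13.8, 21, 6.31 and 16.7 CPM in control eyes. The groups overlapped and the mice disagreed, with the Nrf2 eye higher in 3 and lower in 4 on the normalized log2 scale. The log2 fold change was -0.38 (SE 0.36, 95% interval -1.19 to 0.43, adjusted p = 0.61). Across 15 other analyses it ran from -0.82 to -0.11 with adjusted p of at least 0.0662.

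Ahrr (ENSMUSG00000021575, chromosome 13, 74211118 to 74292331, - strand) encodes the repressor that competes with the receptor for ARNT. Its level was low, at 0.947, 9.79, 1.19, 0.286, 1.29, 1.45 and 2.39 CPM in Nrf2 eyes 1 to 7 and at 1.66, 0.868, 1.12, 1.06, 0.517, 2.82 and 3.26 CPM in control eyes. Nrf2 2 stood far above the other eyes, which otherwise covered the same range in both groups. That library as a whole was the least like any other. The median chi-square of its closest pair, with Nrf2 6, was 63.1 times sampling noise. Every other library had a pair at 36.25 times or less. Nrf2 2 was also the highest Nrf2 eye for Kynu (6.69 CPM) and Kyat1 (47.5 CPM), so a high value there was not particular to Ahrr. The log2 fold change of Ahrr was 0.15 (SE 0.62, 95% interval -1.26 to 1.57, adjusted p = 0.93), with 3 mice higher and 4 lower in the Nrf2 eye. Its sign was not stable: the value was -0.32 without mouse 2 and -0.09 without mouse 5.

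Tiparp (ENSMUSG00000034640, chromosome 3, 65528410 to 65555518, + strand) encodes an ADP-ribosyltransferase that is induced by the receptor and shuts it down. It ranged from 48.1 to 68.7 CPM, with a median of 55.6, in Nrf2 eyes and from 33.6 to 91.3 CPM, with a median of 60.5, in control eyes. The Nrf2 eyes lay wholly within the control range. The log2 fold change was -0.03 (SE 0.19, 95% interval -0.45 to 0.39, adjusted p = 0.95), again with 3 mice higher and 4 lower. Of the 7 genes Tiparp had the narrowest spread among Nrf2 eyes for its level.

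Ahr itself (ENSMUSG00000019256, chromosome 12, 35497974 to 35535038, - strand) had lower values in most Nrf2 eyes without passing the test. It was at 16, 6.81, 17.2, 32.6, 30.1, 12.9 and 11.9 CPM in Nrf2 eyes 1 to 7 and at 30.6, 26.3, 30.6, 27.3, 33.9, 44.1 and 27.2 CPM in control eyes. Only Nrf2 4 and Nrf2 5 reached the control range, and mouse 4 was the only mouse with more in the Nrf2 eye. The log2 fold change was -0.81 (SE 0.30, 95% interval -1.50 to -0.13), which did not pass over all genes (adjusted p = 0.20). For this gene alone flipping the signs of the 7 within-mouse differences in every way (exact permutation test, two-sided) gave p = 0.0469, unadjusted, where the smallest possible is 0.0156. Mouse 4 decided the call: without it the log2 fold change was -1.02 (adjusted p = 0.0481), and without mice 3 and 4 it was -1.10 (adjusted p = 0.10). The sum of surface epithelium markers was also lower in the Nrf2 eye of 6 of 7 mice, with mouse 4 the exception (21571 CPM in Nrf2 4 and 2275 CPM in control 4). Its part in the Ahr values was not tested, and in bulk RNA fewer cells of a type and less RNA per cell cannot be told apart.

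Arnt (ENSMUSG00000015522, chromosome 3, 95434388 to 95497240, + strand), the obligate partner of the receptor, ranged from 29.8 to 56.3 CPM, with a median of 38.8, in Nrf2 eyes and from 42.5 to 56.8 CPM, with a median of 48.3, in control eyes. In 5 of 7 mice it was lower in the Nrf2 eye, and the groups overlapped. The log2 fold change was -0.16 (SE 0.13, 95% interval -0.46 to 0.14, adjusted p = 0.56).

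Together, 0 of the 5 tested genes other than Cyp1a1 passed an adjusted p of 0.05 in the paired quasi-likelihood test of edgeR, where 3.43% of 16289 genes passed (2.94% higher and 0.491% lower in Nrf2 eyes). At an unadjusted p under 0.05 the count was 1, Ahr. The share of all genes at that level was not counted, here or for the lists below. Counts at unadjusted p therefore have no background to be set against. DESeq2 and voom also called 0, where they called 11.9% and 15.9% of all genes. The count was 0 as well without the block for mouse, where 6.75% of all genes passed, and without mice 3 and 4, where 4.59% did. In that last setting the log2 fold changes were -0.40 for Cyp1b1 (adjusted p = 0.70), 0.50 for Ahrr (0.78), -0.17 for Tiparp (0.64) and -0.22 for Arnt (0.45). Without mouse 4 it was 1, Ahr, where 12.2% of all genes passed, 5.98% higher and 6.23% lower. None of the 5 had groups that did not overlap, a pattern seen in 1.76% of all genes.

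**Figure D3:**
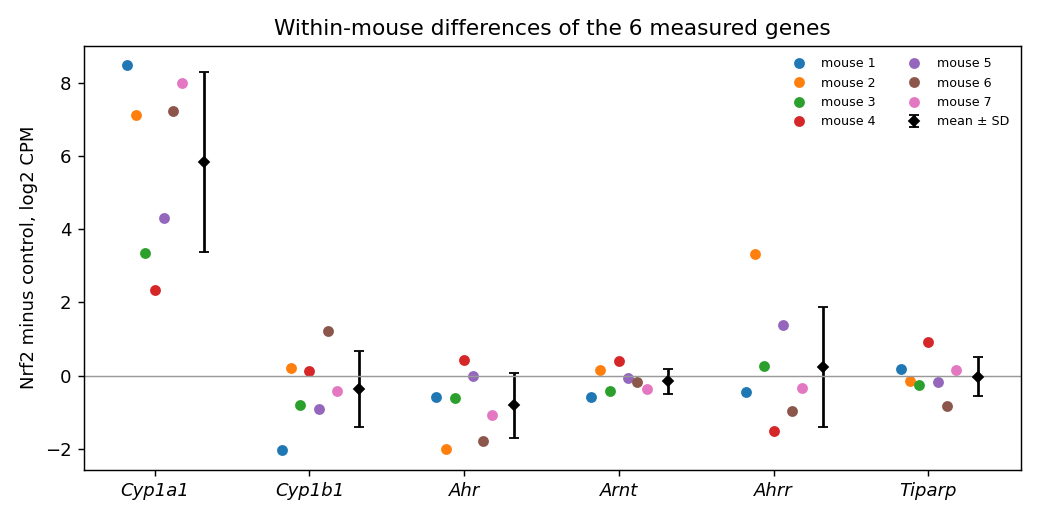
Difference in log2 CPM between the Nrf2 and the control eye of each of the 7 mice (coloured points) for the 6 genes with enough counts, with the mean and SD as black diamonds and bars. Every Cyp1a1 point is above 2.33, and the points of the other 5 genes lie on both sides of 0.

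The order of the genes was compared on a per-length scale, as CPM per kilobase of the longest coding transcript. In control eyes Tiparp was highest at 15.3 ± 4.79 (SD, n = 7), followed by Arnt at 11.1 ± 1.11, Ahr at 5.66 ± 1.12, Cyp1b1 at 3.23 ± 1.52, Ahrr at 0.340 ± 0.218, Cyp1a1 at 0.123 ± 0.188 and Cyp1a2 at 0.00238 ± 0.00629. In Nrf2 eyes Cyp1a1 stood at 4.98 ± 2.60, between Arnt at 9.35 ± 2.26 and Ahr at 3.28 ± 1.73. Neighbouring genes were not cleanly separated there: Cyp1a1 exceeded Ahr in 5 of 7 Nrf2 eyes and Ahr exceeded Cyp1b1 in 4 of 7. In control eyes the steps from Arnt to Ahr and from Cyp1b1 to Ahrr had ranges that did not overlap, and the other steps did.

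The rest of the pathway was read from 7 lists holding 61 genes, of which 48 were tested. In these, 6 genes passed, all higher in Nrf2 eyes, which is 12.5% against 3.43% of all genes. Of the 6, 3 (Nqo1, Gsta1 and Gsta2) were listed as targets shared with Nrf2. The lists were also chosen with earlier results of these data known, so the 2 shares are not a test of the pathway. The median log2 fold change over the 48 was -0.12, against -0.04 over all genes tested.

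**Figure D4:**
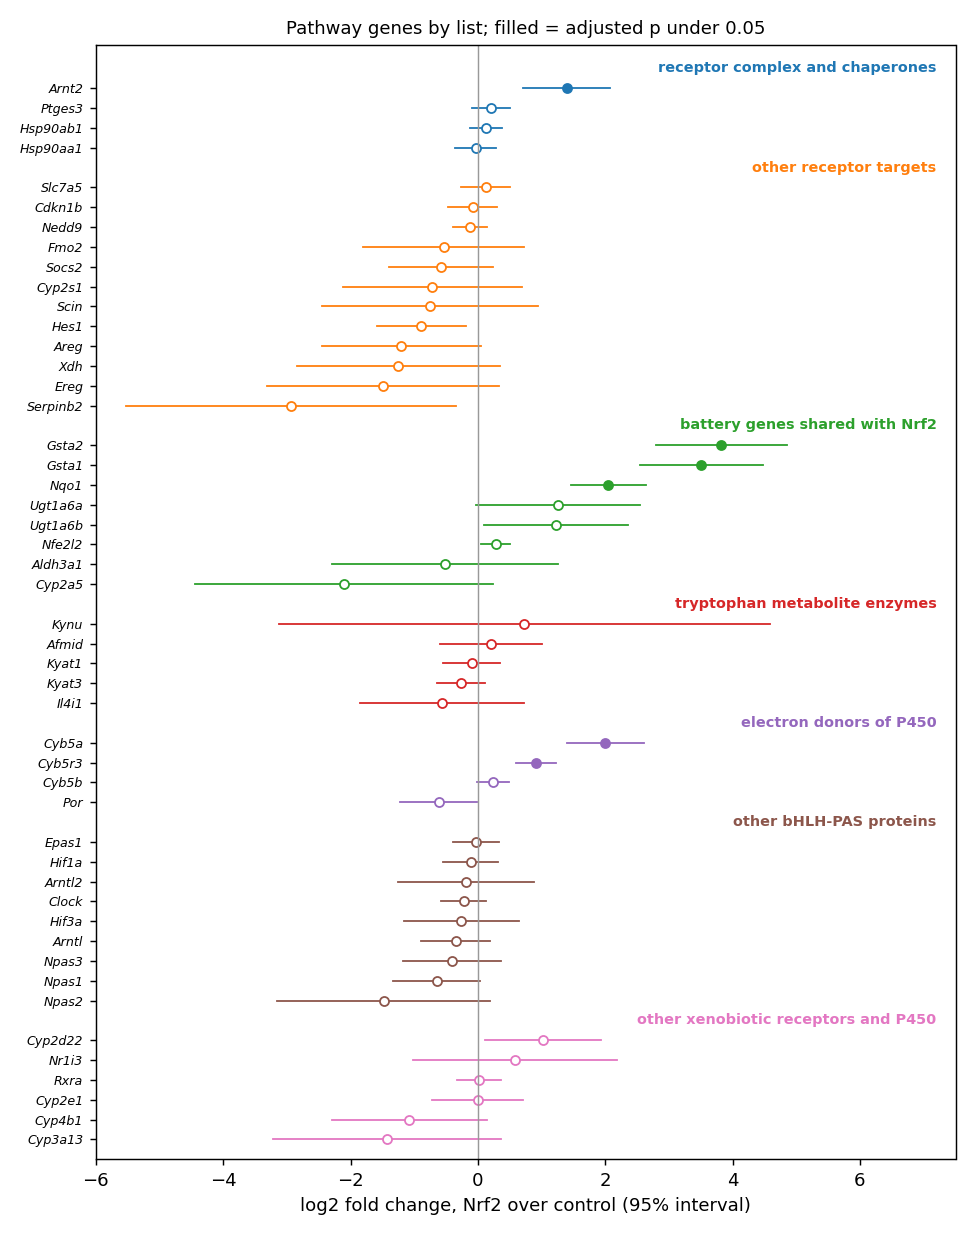
Log2 fold change of Nrf2 over control eyes with its 95% interval for the 48 tested pathway genes, grouped by list, with filled points for adjusted p under 0.05. The 6 filled points, Arnt2, Gsta2, Gsta1, Nqo1, Cyb5a and Cyb5r3, are all to the right of 0, and 11 of 12 other receptor targets are to the left without passing.

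Of 4 genes for the receptor complex and its chaperones, 1 passed. Arnt2, a relative of Arnt that can also serve as partner of bHLH-PAS proteins, ranged from 7.93 to 14.6 CPM, with a median of 11.6, in Nrf2 eyes and from 2.02 to 7.27 CPM, with a median of 4.87, in control eyes. The groups did not overlap, and the Nrf2 eye was higher in 7 of 7 mice, where 8.57% of all genes moved the same way in all 7. For this gene the fitted log2 fold change was 1.39 (SE 0.30, adjusted p = 0.0435), but it passed in only 6 of 15 other analyses, with adjusted p up to 0.153. Without mice 3 and 4 it did not pass (1.58, adjusted p = 0.0665). The chaperone genes Ptges3 (0.20, adjusted p = 0.45), Hsp90ab1 (0.13, adjusted p = 0.57) and Hsp90aa1 (-0.04, adjusted p = 0.92) did not pass. The median of the list was 0.16.

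Among 13 further receptor targets, 12 were tested and 0 passed, and only the amino acid transporter gene Slc7a5 had a positive value (0.12, adjusted p = 0.74). At an unadjusted p under 0.05 the count was 2, Serpinb2 and Hes1, both on the lower side, again with no share of all genes beside it. DESeq2 and voom each called these 2, where they called 11.9% and 15.9% of all genes in either direction. The median log2 fold change of the list was -0.74. Serpinb2, a protease inhibitor gene, ranged from 0.122 to 7.40 CPM in Nrf2 eyes and from 0.353 to 42.7 CPM in control eyes (log2 fold change -2.93, SE 1.14, adjusted p = 0.22). Hes1, a transcriptional repressor gene of the Notch pathway, ranged from 38.0 to 109 CPM in Nrf2 eyes and from 64.2 to 155 CPM in control eyes (-0.89, SE 0.31, adjusted p = 0.18). Ereg, which encodes a growth factor, was at -1.49 (SE 0.80, adjusted p = 0.37). Each of these 3 was lower in the Nrf2 eye of 6 of 7 mice, with mouse 4 the exception, which is also the pattern of the surface epithelium markers, whose part in these values was not tested. Without mouse 4, Serpinb2 (-3.53, adjusted p = 0.0125) and Hes1 (-1.17, adjusted p = 0.0102) passed, and so did Ereg, Areg and Xdh, all lower. In that analysis 6.23% of all genes passed on the lower side. Serpinb2, Hes1 and Ereg also passed without mice 3 and 4, all lower, where 262 of 16563 genes passed on that side.

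The battery genes that the receptor shares with Nrf2 gave 3 of 8 past the threshold, all higher, with a list median of 1.24. Nqo1, the quinone reductase, ranged from 198 to 646 CPM, with a median of 455, in Nrf2 eyes and from 87.4 to 194 CPM, with a median of 123, in control eyes. Its groups did not overlap, and the log2 fold change was 2.05 (SE 0.26, adjusted p = 0.00982). The glutathione transferase genes Gsta1 (3.51, SE 0.43, adjusted p = 0.00935) and Gsta2 (3.82, SE 0.45, adjusted p = 0.00935) rose by more. Gsta1 ranged from 105 to 962 CPM in Nrf2 eyes and from 28.2 to 101 CPM in control eyes, with Nrf2 4 lowest and control 3 highest of their groups, as for Cyp1a1. Gsta1 and Gsta2 are close copies, so the division of reads between them is uncertain. Without mice 3 and 4 the values were 2.35, 4.06 and 4.38 for Nqo1, Gsta1 and Gsta2. All 3 passed in 15 of 15 other analyses and were higher in 7 of 7 mice.

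The other 5 battery genes did not pass, though DESeq2 called Cyp2a5 lower (adjusted p = 0.0242) and Ugt1a6b higher (adjusted p = 0.041). It called 11.9% of all genes in either direction. Aldh3a1, an aldehyde dehydrogenase gene that is a classical receptor target and is also abundant in cornea, was at -0.51 (SE 0.78, adjusted p = 0.77). It ranged from 97.3 to 6292 CPM in control eyes and from 331 to 3127 CPM in Nrf2 eyes, and only in mouse 4 was the Nrf2 eye the higher one. Cyp2a5, a P450 gene, was at -2.10 (SE 1.03, adjusted p = 0.32). Ugt1a6a, which encodes a glucuronosyltransferase and shares exons with the other Ugt1a genes, was at 1.26 (SE 0.57, adjusted p = 0.29). The endogenous mouse Nfe2l2 gene was at 0.28 (SE 0.10, adjusted p = 0.20), from 74.9 to 108 CPM in Nrf2 eyes and from 57.5 to 102 CPM in control eyes.

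Of 4 genes whose products pass electrons to P450 enzymes, 2 rose. Cyb5a, microsomal cytochrome b5, was at 829, 561, 625, 220, 490, 530 and 930 CPM in Nrf2 eyes 1 to 7 and ranged from 111 to 221 CPM in control eyes. Its groups met only at Nrf2 4 and control 3, and it rose by 2.00 on the log2 scale (SE 0.26, adjusted p = 0.0101). Cyb5r3, the reductase of cytochrome b5, changed by 0.92 (SE 0.14, adjusted p = 0.0137), and both were higher in 7 of 7 mice. Cyb5a passed in 15 of 15 other analyses and Cyb5r3 in 13 of 15, and without mice 3 and 4 they were at 2.26 and 1.05. Por, the main electron donor of the microsomal P450 enzymes, was at -0.62 (SE 0.27, adjusted p = 0.27) and passed only without mouse 4 (-0.85, adjusted p = 0.0257). Cyb5b, the mitochondrial form of cytochrome b5, was at 0.23 (SE 0.11, adjusted p = 0.31).

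The enzymes that make receptor ligands from tryptophan were listed as 10 genes. Of these, 5 passed the filter, those for the first step of the kynurenine route (Tdo2, Ido1 and Ido2) not among them, and 0 of 5 passed the test, also by DESeq2, by voom and at an unadjusted p under 0.05. The values were 0.73 for Kynu (SE 1.69, adjusted p = 0.86), -0.57 for Il4i1 (SE 0.57, adjusted p = 0.63), -0.10 for Kyat1 (SE 0.19, adjusted p = 0.83) and -0.26 for Kyat3 (SE 0.17, adjusted p = 0.44). The wide interval of Kynu, from -3.12 to 4.59, leaves its direction undetermined.

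Of 12 other bHLH-PAS genes 9 were tested and 0 passed, all 9 with values below 0 and a median of -0.26. At an unadjusted p under 0.05 the count was 0, DESeq2 called 0, and voom called 2, Npas2 and Hif3a, both lower. Of all genes DESeq2 called 11.9% and voom 15.9%, and 1008 of 16289 were called lower by voom. Npas2, a clock protein gene, was at -1.48 (SE 0.74, adjusted p = 0.33), and Npas1, a neuronal repressor gene at about 1 CPM, was at -0.65 (SE 0.30, adjusted p = 0.30), lower in 7 of 7 mice, which was so for 2.92% of all genes. The hypoxia factors Hif1a (-0.12, SE 0.19, adjusted p = 0.78) and Epas1 (-0.03, SE 0.16, adjusted p = 0.95), which share the partner ARNT with the receptor, were near 0. Of 10 other xenobiotic receptor and P450 genes 6 were tested and 0 passed, with a median of 0.01. DESeq2 called 0, and Cyp2d22 was the 1 gene at an unadjusted p under 0.05 and the 1 called by voom, on the higher side. Of all genes voom called 1586 of 16289 higher. Its value was 1.02 (SE 0.40, adjusted p = 0.23). Cyp3a13 was at -1.43 (SE 0.79, adjusted p = 0.37), Cyp4b1 at -1.07 (SE 0.54, adjusted p = 0.33) and the retinoid X receptor gene Rxra at 0.02 (SE 0.15, adjusted p = 0.96).

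The genes whose levels ran most like those of each gene were found by Pearson correlation of log2 CPM over the 14 libraries, among 16288 genes, as a description in which all points share their library totals and 7 mice. Both groups were pooled, so a difference between them raises r. For Cyp1a1 they were Ccer2, Gstm1, Btn2a2, Acox2 and Maoa, each with r of 0.985 to 0.993. These genes had log2 fold changes from 2.93 (Maoa) to 6.16 (Ccer2). No other member was among them, which adds nothing to the fold changes of the members, and Cyp1a2, below the filter, was not searched. For Ahr they were Sox13 (0.969), Ubp1 (0.958) and Sowahb (0.955), and for Arnt Vrk1 (0.952), Fignl1 (0.94) and AW554918 (0.927). Tiparp ran with Fosl2 (0.962), Nsun2 (0.956) and Rpl22 (0.953), and Cyp1b1 with Zfp157 (0.932), Cacnb4 (0.93) and Robo2 (0.923). The closest genes to Ahrr reached only 0.865 (Gm12346), 0.86 (Gm7407) and 0.857 (Gm4217).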

How the data were processed

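The authors amplified RPE RNA from eyecups (Ultra Low v4 kit), aligned reads to build mm10 with Ensembl release 91 and, in parallel, quantified transcripts with Salmon (0.9.1 per the labels). The deposited table holds estimated counts by gene, as whole numbers and not normalized, and their origin in Salmon was inferred. All 14 columns were mapped by label, with 0 left over. Of 34452 mouse gene rows, 34401 had a symbol. The vector transcript, human NFE2L2, has a row of its own and was kept out of the library totals.

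Differences were tested with quasi-likelihood in edgeR 4.0.16 (under R 4.3.3) on all mouse genes, with terms for mouse and treatment, TMM normalization, library sizes over all mouse genes and a filter (filterByExpr by group, minimum count 10). Benjamini-Hochberg adjustment covered 16289 genes with a threshold of 0.05, and SE follow from the F statistic (6 residual and 2.68 prior degrees of freedom). Unless another tool is named, adjusted p-values of genes are edgeR's. They set each difference against its spread between these mice, with that spread moderated across genes. Log2 CPM used a prior count of 2. The pairing is that of the labels, in which both eyes carry the number of their mouse. Deviations of the eyes of a mouse from the group means correlated at 0.00354, 0.0829, 0.0299, -0.306, 0.304, -0.165 and 0.144 in mice 1 to 7, over 16289 genes. The code was tested on simulated data with known changes.

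Alternatives were no block for mouse, voom (limma 3.58.1, with quality weights), DESeq2 1.42.0, RLE normalization, no filter, a mean of at least 10 counts, a threshold of 0.01, each mouse left out, mice 3 and 4 left out and, chosen after seeing the data, library sizes summed after the filter. Positions are from GENCODE on GRCm38. The members and lists were chosen with earlier results of these data known. The text names the 7 members, every list gene that passed, up to 4 of each list that did not, and the genes most like each member (5 for Cyp1a1 and 3 for the others). Areg, Xdh, Hif3a and Ugt1a6b were named after their values were seen. A gene of the chaperone list is not reported here and was left out of its counts. Markers of endothelium, pericytes, fibroblasts, immune cells, rods and hepatocytes were also summed.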

Additional observations from a re-analysis of the deposited data

Results flagged for a closer look

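In 28 groups of 7 libraries (the members, the vector transcript and the pathway genes that passed), 8 groups had a library that stood far from the rest by Dixon's criterion, where chance gives about 1 in 20 groups. That rate is for independent groups, and these share their libraries, so the 2 cannot be compared directly. Control 3 was far above the other control eyes in Cyp1a1 (1.39 CPM), Gsta1 (100.6 CPM), Gsta2 (149 CPM) and the vector transcript (1164 CPM). Nrf2 2, also the library least like any other, was far above the other Nrf2 eyes in Ahrr (9.79 CPM). Control 6 was far above the other control eyes in Ahr (44.1 CPM). Cyp1a2 was highest in Nrf2 2 (0.0608 CPM) and in control 5 (0.0323 CPM), each from a single count. With all other libraries of a group at 0, the criterion is met whatever the level.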

How the results depend on the processing

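The log2 fold change of Cyp1a1 ran from 5.44 to 7.96 over 15 alternatives and stayed positive. Of the other members, Ahr changed its call: without mouse 4 it was -1.02, the range with each mouse left out being -1.02 to -0.64, and the exact sign-flip permutation test put its mean difference of -0.82 past 0.05. Members called other than Cyp1a1 were 0, and 0 to 1 with each mouse left out. Pathway genes called were 6, and 10 by DESeq2 (7 higher), 11 by voom (7 higher), 3 at a threshold of 0.01, and 4 to 13 with each mouse left out, the most without mouse 4 (7 higher). Without mice 3 and 4 there were 8 (5 higher and 3 lower), where 499 of 16563 genes passed higher and 262 lower.

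Of all genes 559 passed (479 higher). The count was 1943 by DESeq2 (1238 higher), 2594 by voom (1586 higher), 347 without a filter, 56 at a threshold of 0.01, and 97 (without mouse 7) to 1995 (without mouse 4, 977 higher) with each mouse left out. The split between higher and lower therefore moved with the mice used. Without the replicate block 1100 passed (877 higher), with 6 pathway genes and 0 members. The block changed no call of a member. The 2 to 46 control counts behind Cyp1a1 in the 4 control eyes with most vector, and 0 to 1 elsewhere, limit its fold more than the other members' counts limit theirs.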

Other observations

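Sums of the other marker lists were compared in the same libraries. Endothelial markers ranged from 55.4 to 189 CPM in Nrf2 eyes and from 51.4 to 254 CPM in control eyes, those of pericytes and smooth muscle from 297 to 1491 and from 183 to 1227 CPM, fibroblasts from 270 to 1071 and from 110 to 702 CPM, and immune cells from 99.9 to 339 and from 99.1 to 289 CPM. Rod markers ranged from 4.93 to 71.8 CPM in Nrf2 eyes and from 16.9 to 411 CPM in control eyes, and were higher in the Nrf2 eye of 1 of 7 mice. Hepatocyte markers, of interest because Cyp1a2 is a liver gene, were at most 3.95 CPM in any library.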
